A study of Mus musculus with 10 samples.

Results

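The genes described here are 10 heat shock genes, among them stress-inducible, testis-enriched and constitutive ones: Hspa1a, Hspa1b, Hspa1l, Hspa2 and Hspa8 of the HSP70 family, Hspa4l and Hsph1 of the HSP110 family, the HSP90 gene Hsp90aa1, the J protein gene Dnajb1 and the small heat shock gene Hspb1. They were chosen by name, and each has 1 row among the 36806 genes listed in each of 4 tables of mRNA levels from the mouse male germline. All 10 were tested by the authors in all 4 tables. The study compared Ago4-/- mice with Ago4+/+ littermates on the C57BL/6 strain, where Ago4 encodes an Argonaute protein, a partner of small RNAs. Pachytene spermatocytes and leptotene/zygotene (L/Z) spermatocytes came from mice aged 70 days, and whole testes came from mice at day 3 and day 8. Each genotype had 1 mRNA library of each material, which makes 8 mRNA libraries. The tables are named for day 3 testis, pre-meiotic testis, L/Z cells and pachytene cells. The pre-meiotic table carries no age, and of the mRNA materials only the day 8 testes have no table under their own name.

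Heat shock proteins are molecular chaperones that bind unfolded or partly folded proteins. HSP70 proteins cycle between open and closed forms as they bind and hydrolyse ATP; J proteins deliver clients and stimulate that hydrolysis, and HSP110 proteins act as nucleotide exchange factors that reset the cycle. HSP90 takes over later folding steps of kinases, receptors and other clients, while small heat shock proteins hold unfolding proteins without ATP. In most cells Hspa8 and Hsp90ab1 supply the constitutive pool. Under stress, heat shock factor 1 switches on inducible genes such as Hspa1a, Hspa1b, Hspb1, Hsph1, Dnajb1 and Hsp90aa1. Male germ cells use their own HSP70 genes: Hspa2, which is needed for the first meiotic division in spermatocytes, and Hspa1l, which is best known from spermatids.

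The tables give each gene's level as FPKM, which scales fragments to transcript length and to library size, for a condition 1 and a condition 2. No label ties a condition to a genotype or says that the tables share an order, so every difference below is condition 2 minus condition 1 with no genotype attached. A difference is log2((FPKM of condition 2 + 0.1)/(FPKM of condition 1 + 0.1)), which understates changes of low genes. It is given with the error implied by the authors' test statistic, which covers the counting and modelling error of a pair of libraries and not the spread between animals; 95% intervals belong to the log2 ratio with nothing added to FPKM. With a single library behind each condition no replicate check exists, and a q-value then compares libraries and not genotypes. Genes are said to be called where the q-value in the authors' deposited table is at most 0.05. Ago4 itself, listed as Eif2c4, had 4.37 and 12.1 FPKM in conditions 1 and 2 of the pachytene table and 1.67 and 3.26 FPKM in the L/Z table, and since no label says which exons were removed, its level names no genotype. The markers of the table labelled L/Z went against its label. Summed over 7 spermatid markers it held 45929 and 54227 FPKM, against 6944 and 9035 FPKM in the pachytene table, while 7 L/Z markers summed to 169 and 149 FPKM in it and to 529 and 552 FPKM in the pachytene table. Spo11, the enzyme that makes meiotic breaks, was at 11.0 and 12.0 FPKM in the table labelled L/Z and at 57.4 and 61.4 FPKM in the pachytene table.

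The testis-enriched genes were at far higher levels in both spermatocyte tables than in both tables of young testis. Hspa2 stood at 11.4 FPKM in condition 1 and 11.9 FPKM in condition 2 of day 3 testis, 21.0 and 18.7 FPKM in pre-meiotic testis, 569 and 475 FPKM in the table labelled L/Z, and 819 and 783 FPKM in pachytene cells. The lowest spermatocyte level was 22.7 times the highest testis level, and 99.6% of the genes tested in the pachytene table had a lower level than Hspa2. Hspa1l, a gene of the same family, stood at 1.80 and 2.12 FPKM in day 3 testis, 2.93 and 2.84 FPKM in pre-meiotic testis, 427 and 534 FPKM in the table labelled L/Z, and 85.2 and 96.1 FPKM in pachytene cells. Here the closest levels of the pair of materials were 29.1-fold apart. The order of the spermatocyte tables differed between the genes: Hspa2 was higher in the pachytene table and Hspa1l in the table labelled L/Z, with no overlap of conditions in either case. The spermatid markers were also higher in the table labelled L/Z, and their part in the level of Hspa1l there was not tested.

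Hspa4l, an HSP110 protein of testis and a nucleotide exchange factor for HSP70, followed the same course. Its level was 11.6 and 8.44 FPKM in day 3 testis, 66.0 and 54.7 FPKM in pre-meiotic testis, 1206 and 1248 FPKM in the table labelled L/Z, and 834 and 748 FPKM in pachytene cells. It was the one gene of the 10 that was also several times higher in the pre-meiotic table than at day 3. Hsp90aa1, the inducible cytosolic HSP90, was at 510.2 and 381 FPKM, then 752 and 723 FPKM, then 1399 and 1246 FPKM, and at 2277 and 1947 FPKM in pachytene cells, in the same order of tables. This was a smaller step, with 1.66-fold between the lowest spermatocyte and the highest testis level, but from a high base: in pachytene cells 99.9% of the genes tested had a lower level. Dnajb1, the J protein that works with inducible HSP70, was at 35.8 and 39.8 FPKM, 30.0 and 29.0 FPKM, 204 and 210.2 FPKM, and 225 and 241 FPKM, so that its closest levels were 5.13-fold apart.

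Hspa8 and Hspb1 went the other way, and Hsph1 did so only in FPKM as deposited. Hspa8, the constitutive HSP70 of most cells, was at 1122 and 889 FPKM in day 3 testis, 808 and 965 FPKM in pre-meiotic testis, 39.2 and 46.8 FPKM in the table labelled L/Z, and 62.7 and 90.6 FPKM in pachytene cells. Every testis level of Hspa8 was at least 8.92 times every spermatocyte level. Hspb1, the small heat shock protein HSP25, was at 104 and 194 FPKM, 44.5 and 53.4 FPKM, 3.17 and 4.72 FPKM, and 4.06 and 9.93 FPKM in the same order, with 4.49-fold between the closest levels. Hsph1, the stress-inducible HSP110, was at 36.8 and 27.8 FPKM, 50.7 and 53.2 FPKM, 19.3 and 14.8 FPKM, and 22.3 and 23.3 FPKM, so that its closest levels were only 1.19-fold apart. Hspa1a and Hspa1b overlapped between materials: Hspa1a ranged from 8.92 to 23.2 FPKM in the testis tables and from 2.66 to 20.2 FPKM in the spermatocyte tables, and Hspa1b from 9.31 to 29.9 FPKM and from 2.97 to 22.4 FPKM.

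In all, 5 of the 10 genes lay above and 3 below the testis tables without overlap, where 20.6% and 48.7% of the 16068 genes tested in all tables did. The share above was higher than the background and the share below was lower. Testis-enriched genes were among those chosen by name. The larger share above is partly built into that choice and is not a result about heat shock genes as a set. The tables were normalized separately, and the cells differ from the testes in cell type, in age and in the loss of somatic cells, which cannot be told apart. In bulk material, fewer cells of a type and less RNA per cell cannot be told apart either. As a measure of the somatic part, 6 Sertoli cell markers summed to between 2518 and 2718 FPKM in the testis tables and to between 45.3 and 122 FPKM in the spermatocyte tables. The 7 spermatid markers summed to between 4.26 and 66.0 FPKM in the testis tables. In the spermatocyte tables, the pachytene table included, they summed to between 6944 and 54227 FPKM. The part of spermatids in the levels of the 10 genes there was not tested. The factors of a median ratio scaling differed by -0.91 (log2, spermatocytes minus testes), and dividing by them raised each difference between these materials. With that scaling the mean log2 difference was 6.31 for Hspa2, 7.28 for Hspa1l, -3.13 for Hspa8 and -3.14 for Hspb1, against 5.40, 6.39, -4.04 and -4.04 as deposited. Hsph1 overlapped under that scaling, with a difference of -0.14 in place of -1.05, and the difference of Hspa1a turned from -0.84 to 0.06.

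**Figure D1:**
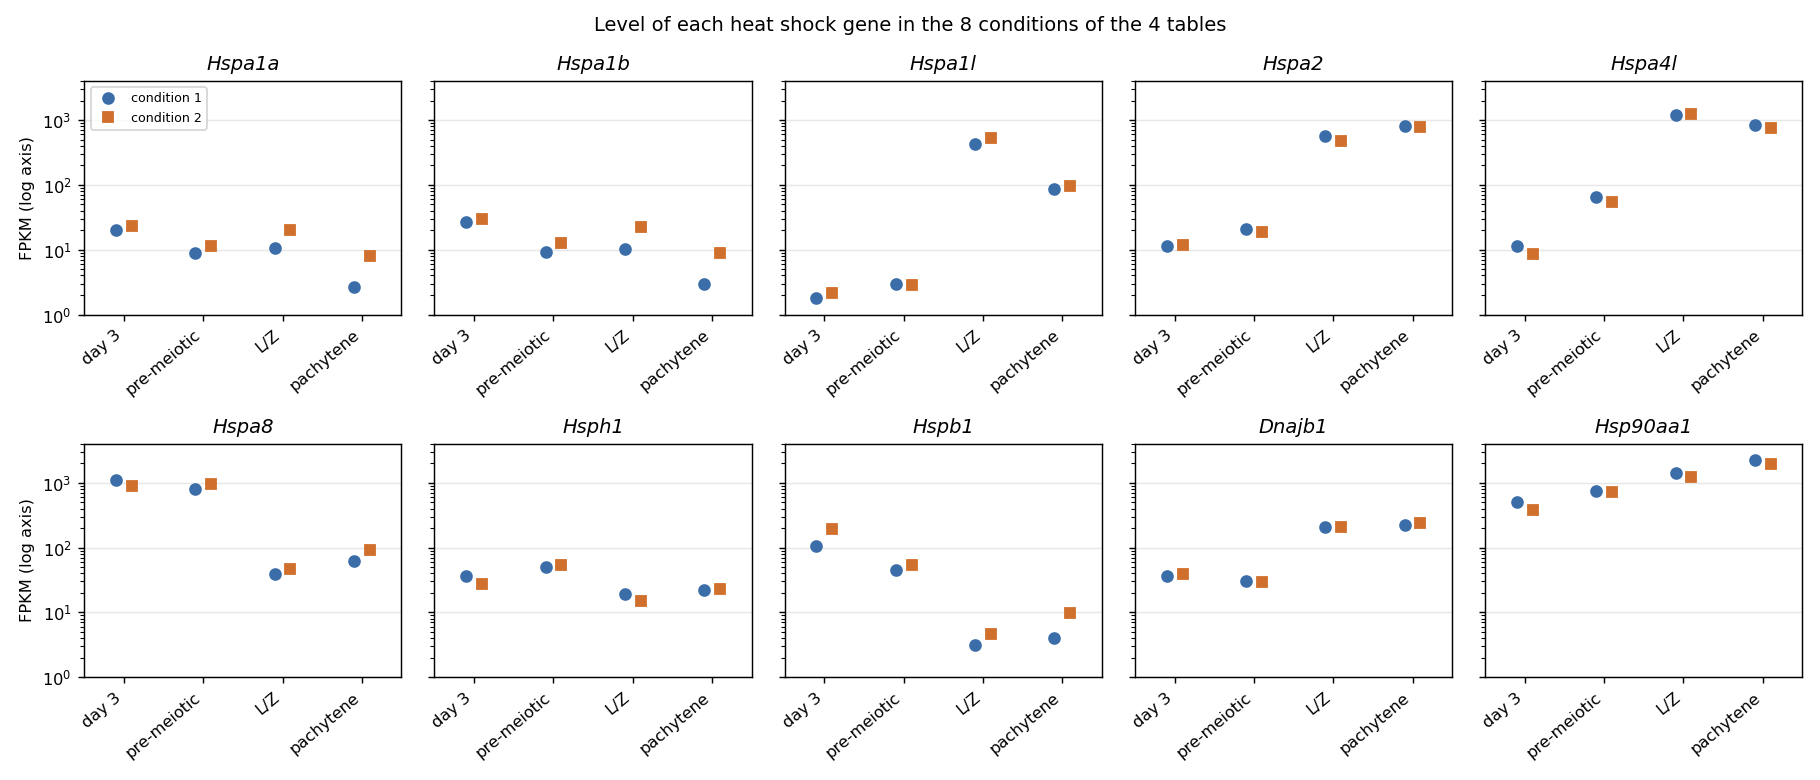
FPKM (log axis) of the 10 heat shock genes in the 4 tables, with 1 point for each condition of a table and a panel for each gene. Hspa1l, Hspa2, Hspa4l, Dnajb1 and Hsp90aa1 lie higher in both spermatocyte tables, Hspa8, Hsph1 and Hspb1 lie lower, and Hspa1a and Hspa1b overlap.

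FPKM is a level per transcript length, so genes of a family can be set beside each other within a condition. Among the 5 cytosolic HSP70 genes, Hspa8 made up between 93.0% and 95.5% of the summed FPKM in the testis tables. In the pachytene table Hspa2 held 84.2% and 79.4% of that sum in conditions 1 and 2, Hspa1l held 8.76% and 9.75%, and Hspa8 held 6.45% and 9.19%. In the table labelled L/Z, Hspa2 held 53.8% and 43.2% and Hspa1l 40.5% and 48.6%, with 3.71% and 4.26% left to Hspa8. In FPKM as deposited, the sum of the family lay between 851 and 1182 FPKM over all 8 conditions. That range depends on the scaling, since the tables were normalized separately. Median ratio factors ran from 0.602 in condition 2 of the table labelled L/Z to 1.40 in condition 1 of pre-meiotic testis. An equal total across materials is therefore not shown, while shares within a condition do not depend on the scaling. At day 3 the level of Hspa8 was 98.8 and 74.7 times that of Hspa2, and in pachytene cells Hspa2 was 13.0 and 8.64 times Hspa8.

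The other families changed hands in a similar way. Of the 3 HSP110 genes, Hspa4, the constitutive member, held 74.6% and 77.8% of the summed FPKM at day 3, and Hspa4l held 72.9% and 68.7% in pachytene cells and 83.7% and 85.3% in the table labelled L/Z. The level of Hspa4 itself was 142 and 127 FPKM at day 3, 239 and 218 FPKM in pre-meiotic testis, and 287 and 317 FPKM in pachytene cells. In the table labelled L/Z it was 215 and 201 FPKM. Hspa4 was thus also higher in both spermatocyte tables than at day 3, and the larger share of Hspa4l came from a far larger rise of its own. The share of Hsph1 was 19.3% and 17.0% at day 3 and 1.96% and 2.14% in pachytene cells. For HSP90, the share of Hsp90aa1 was 13.9% and 12.7% at day 3, 25.9% and 24.8% in pre-meiotic testis, 88.4% and 88.8% in the table labelled L/Z, and 89.5% and 86.7% in pachytene cells. Its constitutive partner Hsp90ab1 was at 3167 and 2622 FPKM at day 3 and at 267 and 299 FPKM in pachytene cells, so both the higher Hsp90aa1 and the lower Hsp90ab1 entered that share.

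**Figure D2:**
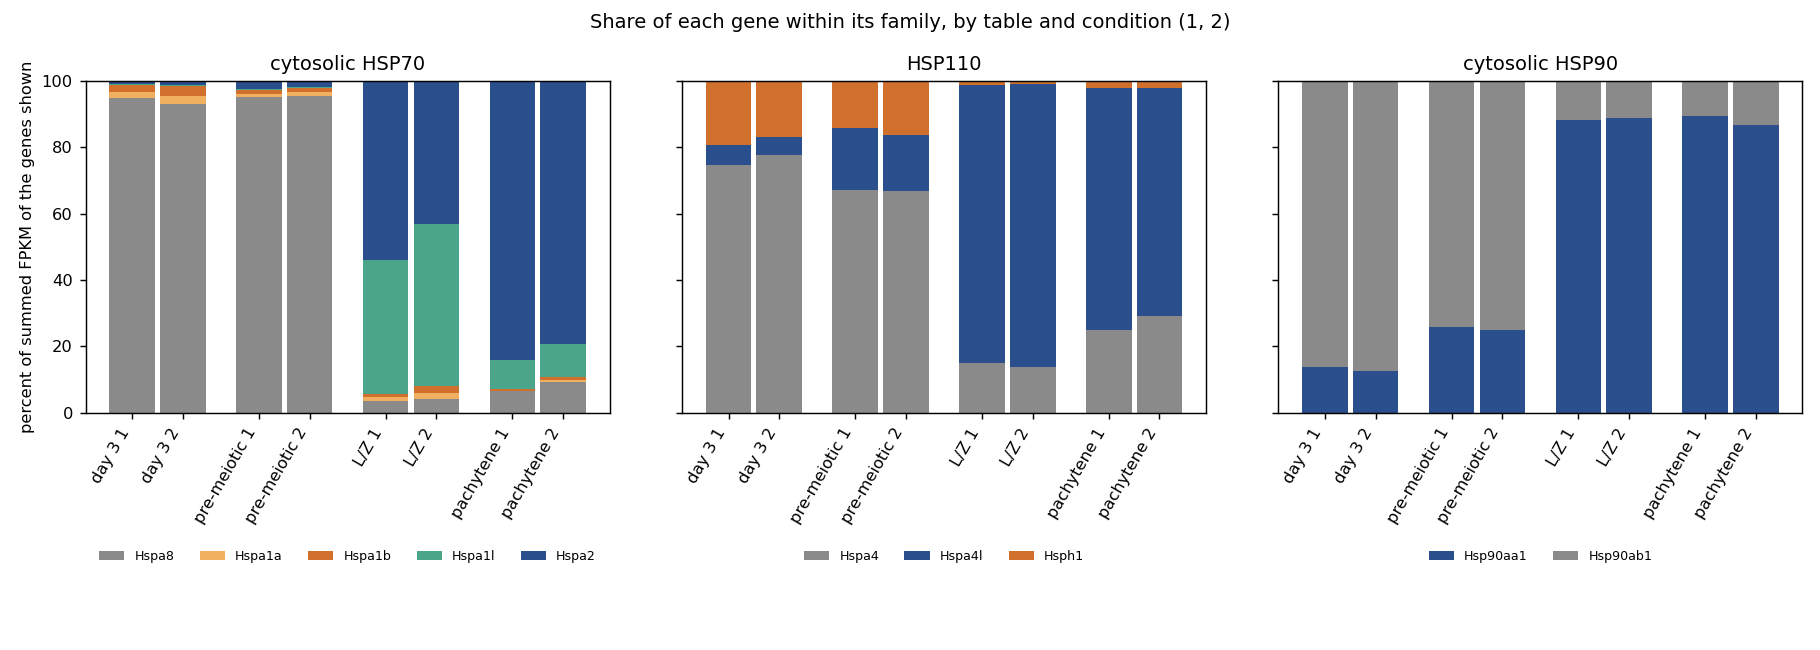
Share of the summed FPKM (percent) that each gene held within the cytosolic HSP70, HSP110 and cytosolic HSP90 families, with 1 stacked bar for each condition of each table. Hspa8 fills most of the HSP70 bar in the testis tables, and Hspa2, with Hspa1l in the table labelled L/Z, fills most of it in the spermatocyte tables.

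Stress-inducible genes carry heat shock elements, inverted repeats of the unit GAA that heat shock factors bind. Promoters are shown for the genes in which a core pair of such units was found. The core pairs GAANNTTC and TTCNNGAA, each its own reverse complement, were searched in the 250 bases before each RefSeq start (build GRCm38.p6). Of 32851 such windows, 6.69% held the first pair, 7.17% the second and 12.8% either. Windows were present for 8 of the 10 genes, and 4 of them held a match: Hspa1a, Hspa1b, Hspb1 and Hsph1. No match was found in the windows of Hspa1l, Hspa2, Hspa4l and Dnajb1. Dnajb1 is itself stress-inducible in many cells, so the matches did not cover every inducible gene. A match describes these letters and does not show binding. The windows of 5 genes are given in transcript direction, with matches in capitals, at chr5:135887669-135887918 (Hspb1, plus strand), chr17:34959239-34959488 (Hspa1b, minus strand), chr17:34972157-34972406 (Hspa1a, minus strand), chr5:149636316-149636565 (Hsph1, minus strand) and, as a testis-enriched gene with no match, chr12:76404120-76404369 (Hspa2, plus strand).
Hspb1: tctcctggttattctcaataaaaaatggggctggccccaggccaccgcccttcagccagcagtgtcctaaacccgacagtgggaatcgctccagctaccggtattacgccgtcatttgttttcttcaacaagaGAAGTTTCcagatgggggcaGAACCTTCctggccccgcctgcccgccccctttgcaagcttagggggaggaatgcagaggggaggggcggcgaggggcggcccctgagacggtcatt
Hspa1b: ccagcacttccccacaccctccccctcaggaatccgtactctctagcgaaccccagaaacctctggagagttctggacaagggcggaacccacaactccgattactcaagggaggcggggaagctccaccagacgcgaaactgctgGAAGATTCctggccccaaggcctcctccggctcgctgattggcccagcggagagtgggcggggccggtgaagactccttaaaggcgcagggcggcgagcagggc
Hspa1a: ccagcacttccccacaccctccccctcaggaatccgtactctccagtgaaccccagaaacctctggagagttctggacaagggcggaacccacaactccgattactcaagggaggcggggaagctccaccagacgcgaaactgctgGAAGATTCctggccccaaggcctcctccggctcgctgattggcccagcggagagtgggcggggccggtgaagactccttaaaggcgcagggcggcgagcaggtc
Hsph1: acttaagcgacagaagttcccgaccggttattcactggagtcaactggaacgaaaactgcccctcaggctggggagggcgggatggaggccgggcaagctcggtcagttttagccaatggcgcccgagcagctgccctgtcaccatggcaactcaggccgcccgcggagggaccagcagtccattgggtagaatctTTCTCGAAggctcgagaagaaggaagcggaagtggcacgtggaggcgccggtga
Hspa2: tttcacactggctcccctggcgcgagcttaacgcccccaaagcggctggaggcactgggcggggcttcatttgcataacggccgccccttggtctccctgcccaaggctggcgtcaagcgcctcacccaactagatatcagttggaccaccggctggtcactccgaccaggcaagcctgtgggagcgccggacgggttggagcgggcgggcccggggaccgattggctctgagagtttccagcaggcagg

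The window of Hspb1 holds the first pair at 117 and at 97 bases before the start. The window shown for Hsph1 holds the second pair at 54 bases before the start. Hsph1 has another RefSeq start, and the same match lies 33 bases before that one. The windows of Hspa1a and Hspa1b share 247 of their 250 bases, with the match 104 bases before the start in both. Their transcripts are near-identical copies as well, so reads cannot be assigned to one of them with certainty and their values are uncertain as separate measurements. Their FPKM ratio, Hspa1a over Hspa1b, ran from 0.758 to 1.01 over the 8 conditions. Hspa1l lies beside Hspa1a on the opposite strand, with its own window at chr17:34972453-34972702 (Hspa1l, plus strand), which lies next to that of Hspa1a so that the genes start head to head. In the coordinates of the authors' tables, made on a build that the labels leave unnamed, Hspa1b lies at chr17:35093942-35096181, Hspa1a at chr17:35106143-35109069 and Hspa1l at chr17:35109647-35118733.

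Within the spermatocyte tables, the 2 inducible HSP70 genes were higher in condition 2 in each table. In pachytene cells Hspa1a was at 2.66 FPKM in condition 1 and 7.96 FPKM in condition 2, a log2 difference of 1.54 with an implied error of 0.41 (q = 0.0123 in the authors' deposited table). Hspa1b was at 2.97 and 8.84 FPKM there, a difference of 1.54 with an implied error of 0.43 (q = 0.0216 in the authors' deposited table). Hspb1 was at 4.06 and 9.93 FPKM, a difference of 1.27 with an implied error of 0.38 (q = 0.0433 in the authors' deposited table). All of these levels are low beside the 783 FPKM or more of Hspa2 in the same cells. In the table labelled L/Z, Hspa1a was at 10.6 and 20.2 FPKM, a difference of 0.93 with an implied error of 0.22 (q = 0.00332 in the authors' deposited table). Hspa1b was at 10.4 and 22.4 FPKM, a difference of 1.10 with an implied error of 0.24 (q = 0.000776 in the authors' deposited table). Hspb1 was not called there, at 3.17 and 4.72 FPKM with a difference of 0.56 and an implied error of 0.66 (q = 0.804 in the authors' deposited table).

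In the pachytene table, 3 of the 10 genes passed 2-fold higher, where 6.66% of all 22322 genes tested did, and the same 3 were called higher, where 0.614% of all genes were. In the table labelled L/Z, only Hspa1b passed 2-fold higher, against 9.03% of all genes, and Hspa1a and Hspa1b were called higher, against 0.804%. No heat shock gene of the 10 passed 2-fold lower or was called lower in either table, where 11.1% and 1.01% of all genes did in the pachytene table and 9.21% and 1.33% in the table labelled L/Z. Since Hspa1a and Hspa1b share reads, they do not count as independent. The median log2 difference of the 10 genes was 0.13 in pachytene cells and 0.15 in the table labelled L/Z, beside 0.01 and -0.06 over all genes tested.

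None of the other genes was called in these spermatocyte tables, the testis-enriched ones included. For Hspa2 the log2 difference was -0.07 in pachytene cells, with a 95% interval from -0.41 to 0.28, and -0.26 in the table labelled L/Z, with an interval from -0.58 to 0.06. For Hspa1l it was 0.17, with an interval from -0.26 to 0.61, and 0.32, with an interval from 0.00 to 0.64. Hspa1l lies next to Hspa1a on the chromosome. In pachytene cells the interval of Hspa1l ends below the 0.78 at which that of Hspa1a begins. In the table labelled L/Z the intervals overlap, as that of Hspa1a runs from 0.50 to 1.37. The difference between the genes was not tested. For Hspa4l the values were -0.16 (-0.39 to 0.08) in pachytene cells and 0.05 (-0.15 to 0.24) in the table labelled L/Z. For Dnajb1, which is stress-inducible in many cells, they were 0.10 (-0.18 to 0.37) and 0.04 (-0.19 to 0.27). For Hsp90aa1 they were -0.23 (-0.45 to 0.00) and -0.17 (-0.34 to 0.01), and for Hsph1, whose window also holds a core pair, 0.06 (-0.29 to 0.42) and -0.38 (-0.73 to -0.03). Hspa8 was 0.53 higher in condition 2 of the pachytene table with an implied error of 0.21 (q = 0.214 in the authors' deposited table) and 0.25 higher in the table labelled L/Z with an implied error of 0.22 (q = 0.692 in the authors' deposited table). These intervals cover counting and modelling error only, and a q-value above the threshold does not show that the levels were equal.

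**Figure D3:**
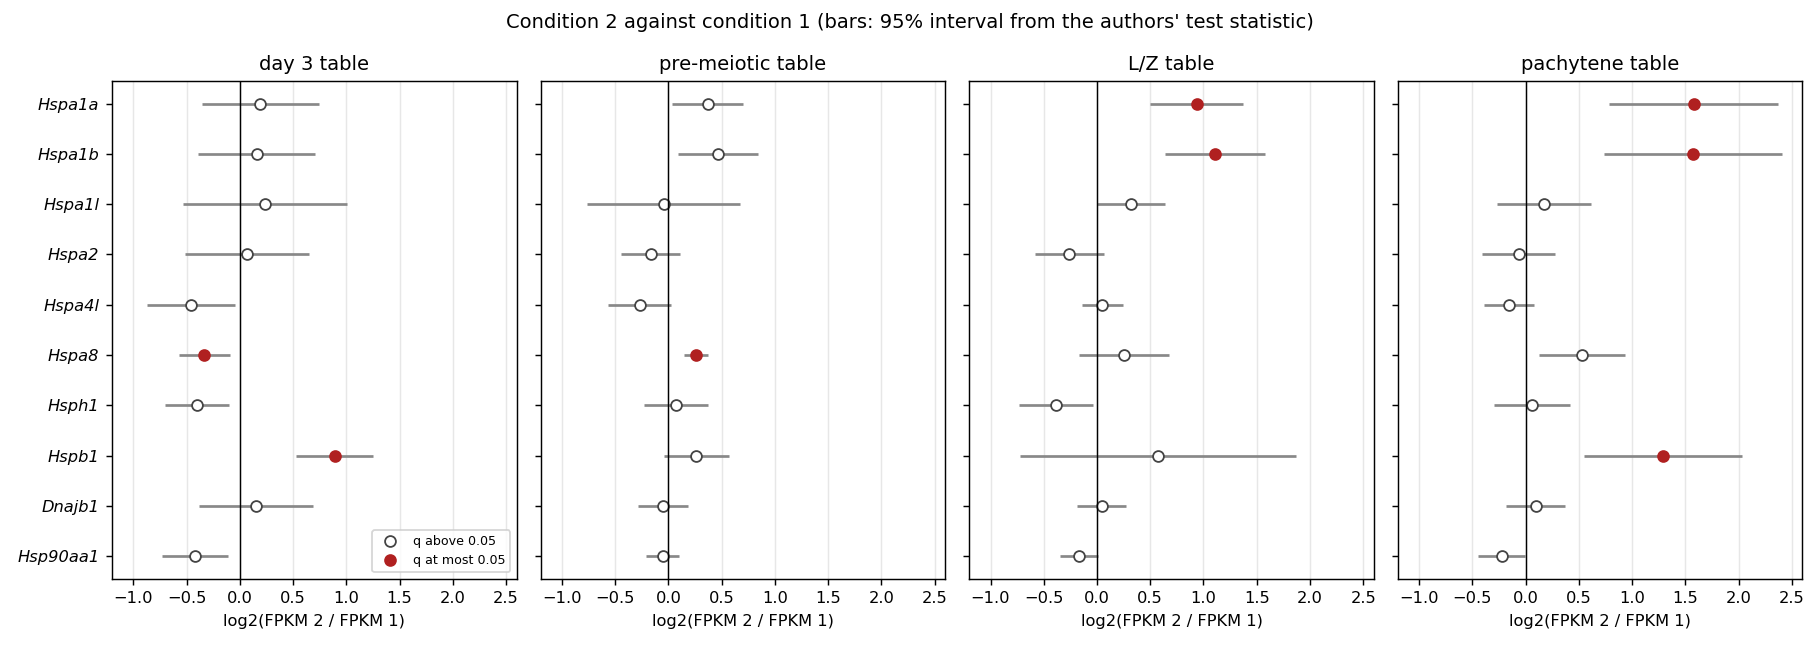
Log2 ratio of FPKM, condition 2 over condition 1 with nothing added, for each of the 10 genes in the 4 tables, with horizontal bars for the 95% interval implied by the authors' statistic and filled points for genes that the authors' q-values call. Hspa1a and Hspa1b lie to the right of 0 in both spermatocyte tables, Hspb1 in the day 3 and pachytene tables, and Hspa8 lies on opposite sides of 0 in the testis tables.

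Other genes that respond fast to stimulation moved in the same pairs of libraries. Of 15 immediate early genes, 11 passed 2-fold higher and 7 were called higher in pachytene cells, beside 6.66% and 0.614% of all genes tested. In the table labelled L/Z, 12 passed and 8 were called, beside 9.03% and 0.804% of all genes. The median log2 difference of the 15 genes was 1.33 and 1.45, and none was called lower in either table. At day 3, 3 of them were called higher and 1 lower, beside 4.8% and 9.97% of all genes, with a median of 0.35. In the pre-meiotic table none was called, and the median was 0.31. Zfp36, which promotes mRNA decay, rose from 8.59 to 42.3 FPKM in pachytene cells and from 12.4 to 43.8 FPKM in the table labelled L/Z. Fos, a subunit of the transcription factor AP-1, rose from 8.57 to 39.6 FPKM and from 13.9 to 40.4 FPKM. Ier3 rose from 2.66 to 13.7 FPKM and Atf3, a stress-induced transcription factor, from 3.95 to 19.3 FPKM in pachytene cells, and Btg2, an antiproliferative gene, rose from 2.24 to 7.54 FPKM in the table labelled L/Z.

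Some markers of cells other than germ cells were also higher in condition 2 of the spermatocyte tables. Of 6 myoid and smooth muscle markers, 3 were called higher in condition 2 of the pachytene table, where they summed to 14.8 and 32.4 FPKM, and 5 in the table labelled L/Z, where they summed to 9.28 and 43.8 FPKM. In the day 3 table the same markers summed to 1266 and 1391 FPKM. Of 6 endothelial markers, 3 were called higher in pachytene cells (3.56 and 10.9 FPKM in sum) and 1 in the table labelled L/Z (3.35 and 10.5 FPKM). Of 6 macrophage markers, 1 was called higher in pachytene cells and 3 in the table labelled L/Z, where Cd68 and Lyz2 were listed at 0 in condition 1. H2-Ab1, an antigen-presentation gene, carried most of their sum: it rose from 3.35 to 43.5 FPKM in pachytene cells and from 6.90 to 41.5 FPKM in the table labelled L/Z. The other 5 macrophage markers summed to 3.96 and 4.86 FPKM and to 9.38 and 20.7 FPKM. Of the erythrocyte markers, 4 of 6 were called higher in the table labelled L/Z (39.7 and 337 FPKM in sum) and 0 of the 5 tested in pachytene cells (6.54 and 17.2 FPKM). No Sertoli or Leydig marker was called in either table. Sertoli markers summed to 108 and 122 FPKM in pachytene cells and 62.2 and 45.3 FPKM in the table labelled L/Z, and Leydig markers to 42.9 and 36.7 FPKM and to 12.4 and 13.0 FPKM. Some germ cell markers were called lower in condition 2. In pachytene cells 1 of 7 L/Z markers was, Sycp1 from 63.5 to 31.2 FPKM. In the table labelled L/Z, 1 of 7 pachytene markers was, Piwil1 from 37.2 to 24.8 FPKM. There 1 of 7 spermatid markers was too, Spaca1 from 204 to 148 FPKM. No germ cell marker was called higher in either table. The part of any of these cells in the differences of Hspa1a, Hspa1b and Hspb1 was not tested.

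**Figure D4:**
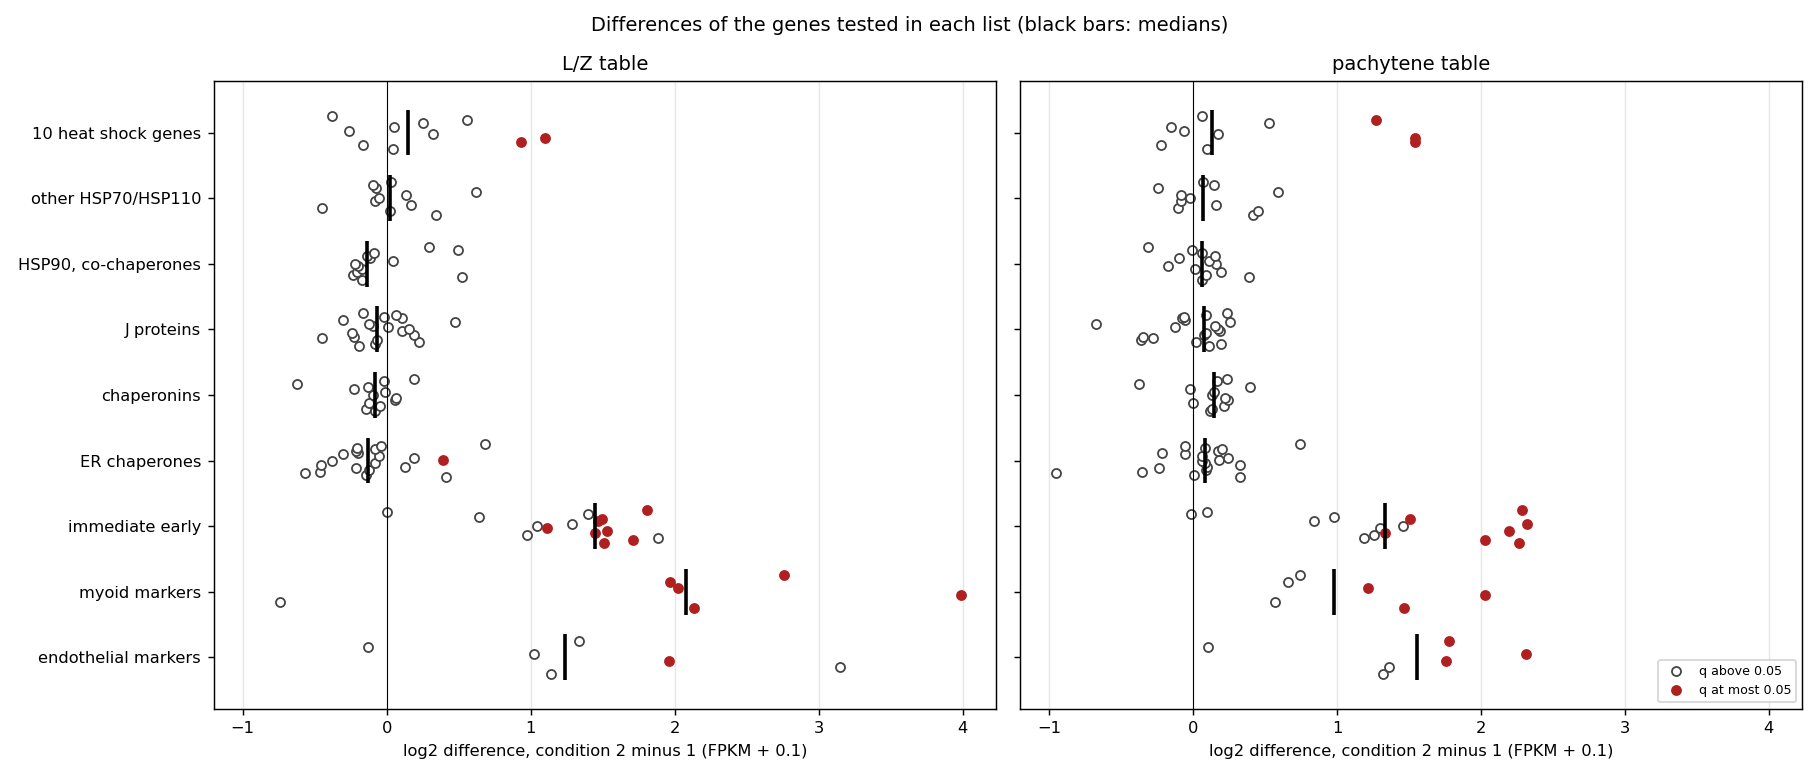
Log2 difference (condition 2 minus condition 1, FPKM + 0.1) of every tested gene of each list in the table labelled L/Z and the pachytene table, with black bars at the list medians and filled points for genes that the authors' q-values call. Most immediate early, myoid and endothelial genes lie to the right of 0, with median differences of 1.45, 2.08 and 1.24 in the table labelled L/Z and 1.33, 0.98 and 1.56 in pachytene cells, while the other chaperone lists shown have medians between -0.14 and 0.15.

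In the testis tables the called genes were others. At day 3, Hspb1 rose from 104 to 194 FPKM, a log2 difference of 0.89 with an implied error of 0.19 (q = 4.42e-05 in the authors' deposited table). Hspa8 fell from 1122 to 889 FPKM, a difference of -0.34 with an implied error of 0.12 (q = 0.0437 in the authors' deposited table). Hsp90aa1 and Hsph1 had differences of -0.42 and -0.40 and narrowly missed the threshold (q = 0.0524 and 0.0567 in the authors' deposited table). Hspa4l had a difference of -0.45 with an implied error of 0.21 (q = 0.134 in the authors' deposited table). Hspa1a and Hspa1b had differences of 0.19 and 0.16, both within their implied error of 0.28. The count of 1 gene called higher and 1 called lower stands beside 4.8% and 9.97% of all 24020 genes, and none of the 10 genes passed 2-fold in either direction, where 5.08% of all genes were higher and 9.07% lower. In the same table, 4 of 6 markers of undifferentiated spermatogonia were called lower (87.7 and 43.5 FPKM in sum), and 3 of 6 macrophage markers were called higher (55.5 and 95.4 FPKM). Of 6 Leydig markers, 2 were called lower and 1 higher, with Cyp17a1, a steroid-synthesis enzyme, falling from 217 to 73.8 FPKM. Of 6 endothelial markers, 2 were called lower and 1 higher, and of 6 myoid markers 1 was called lower, Myh11 from 69.8 to 28.1 FPKM, and 1 higher. Pachytene markers were called lower in 2 of 7 cases, L/Z markers in 1 of 7 and Sertoli markers in 1 of 6, and 1 of 6 erythrocyte markers was called higher. The part of these cells in the differences of Hspb1 and Hspa8 was not tested.

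In the pre-meiotic table Hspa8 was the only one of the 10 genes called. It rose from 808 to 965 FPKM, a log2 difference of 0.26 with an implied error of 0.06 (q = 0.00251 in the authors' deposited table), the opposite direction from day 3. Conditions may be ordered differently in those tables, so whether the direction reversed between ages cannot be told. Of all 20154 genes tested, 0.471% were called higher and 0.68% lower, and none of the 10 heat shock genes passed 2-fold, where 7.47% of all genes were higher and 6.23% lower. Hspb1 had a difference of 0.26 with an implied error of 0.15, Hspa1a of 0.36 with an implied error of 0.17 and Hspa1b of 0.46 with an implied error of 0.19. Their q-values in the authors' deposited table were 0.555, 0.420 and 0.303. In the same libraries 4 of 7 L/Z markers were called lower (278 and 173 FPKM in sum), 4 of 6 erythrocyte markers were called higher (459 and 730 FPKM), and 1 of 6 Sertoli markers was called higher. Their part in the difference of Hspa8 was not tested. The median of the 10 genes was 0.01 here and 0.11 at day 3, beside 0.00 and 0.02 over all genes tested.

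Outside the day 3 table, the other chaperone genes showed few called differences. Of all genes tested, 4.8% were called higher and 9.97% lower at day 3. In the table labelled L/Z, 0.804% were called higher and 1.33% lower. None of the 11 other HSP70 and HSP110 genes and cofactors found in the tables, and none of 13 HSP90 genes and co-chaperones, was called in any table. Among 9 other small heat shock genes, Hspb2 rose from 1.84 to 5.60 FPKM and Hspb8 from 20.9 to 32.9 FPKM at day 3, in the same direction as Hspb1. None was called in the other tables, although the median of the 7 tested in the table labelled L/Z was 0.34. Of 19 J protein genes, only Dnajc5, a J protein of secretory vesicles, was called, and it fell from 79.7 to 35.1 FPKM at day 3. Of 7 genes of heat shock factors and their binding proteins, only Hsfy2 was called. It fell from 93.5 to 60.9 FPKM in the table labelled L/Z. Hsf1, the factor that drives the stress response, was at 19.4 and 19.6 FPKM in pachytene cells and at 11.7 and 12.7 FPKM in the table labelled L/Z, where its differences of 0.02 and 0.12 lay within their implied errors of 0.26 and 0.24; it was chosen for its role after values were seen. Of 13 genes of chaperonins and mitochondrial chaperones, Cct3, a subunit of the cytosolic chaperonin, rose from 235 to 348 FPKM at day 3. Of 20 genes of endoplasmic reticulum (ER) chaperones and the unfolded protein response, 6 were called higher at day 3. That is a larger share than the 4.8% of all genes. Among the 6, Manf rose from 211 to 402 FPKM, Sdf2l1 from 9.12 to 18.6 FPKM and Ddit3 from 26.7 to 46.7 FPKM. Herpud1, which acts in ER-associated degradation, was the 1 gene of that list called higher in the table labelled L/Z, from 283 to 371 FPKM, and none was called in the pachytene table.

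Several relatives of the 10 genes also lay above the testes, and every relative named here is on that side. Over the 16068 genes tested in all tables, 20.6% lay above and 48.7% below. Of the 17 J protein genes tested in all tables, 10 lay above the testes without overlap and 4 below. Dnajb3, a testis J protein, was at 3.41 and 4.77 FPKM at day 3 and at 414 and 470.2 FPKM in pachytene cells. Among the small heat shock genes, 4 of 6 lay above and 2 below, led by Odf1, a protein of the sperm tail's outer dense fibres, at 515 and 485 FPKM in pachytene cells and 2136 and 2706 FPKM in the table labelled L/Z. Hspb9, a testis small heat shock gene, was at 519 and 657 FPKM and at 814 and 1011 FPKM. Dnajb8 was at 91.5 and 109 FPKM in pachytene cells and at 482 and 668 FPKM in the table labelled L/Z, so that it shared the order of Hspa1l. The HSP90 genes and co-chaperones went the other way, with 2 of 13 above and 9 below. Fkbp4, an HSP90-binding immunophilin, was among those above, at 522 and 526 FPKM in pachytene cells and 238 and 259 FPKM at day 3. Of the other HSP70 and HSP110 genes and cofactors, 2 of 10 lay above, near the share of all genes, and 4 below. Those above included the nucleotide exchange factor Bag5, at 379 and 357 FPKM in pachytene cells and 22.4 and 26.1 FPKM at day 3. Among genes of heat shock factors and of their binding proteins, 3 of 5 lay above and 1 below. Those above were Hsf5, a germ cell factor, and the binding proteins Hsbp1 and Hsf2bp. Hsf5 was at 133 and 139 FPKM in pachytene cells and 0.628 and 0.415 FPKM at day 3. Tcp1, a chaperonin subunit, was at 2799 and 3140 FPKM in pachytene cells and 347 and 360.2 FPKM at day 3. Of the genes of chaperonins and mitochondrial chaperones, 5 of 13 lay above and 3 below.

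The genes whose levels ran most like those of Hspa1b and Hspa2 were sought among 11128 genes, by the root mean square difference of log2(FPKM + 0.1) over the 8 conditions after each gene's own mean was subtracted. Nearest to Hspa1b was Hspa1a, with which it shares reads, at 0.13. Next came Fxyd2 at 0.25, C1qb at 0.44, Pmvk at 0.45 and Slc39a13 at 0.45. C1qb, a complement gene of macrophages, was at 1.85 and 3.12 FPKM in pachytene cells and at 7.85 and 17.8 FPKM in the table labelled L/Z. In pachytene cells Fxyd2 was at 1.01 and 2.56 FPKM, Pmvk at 5.67 and 5.79 FPKM, and Slc39a13 at 10.9 and 12.4 FPKM. Nearest to Hspa2 were Lca5l at 0.11, Nkapl at 0.17, Lrrc48 at 0.17, Itgae at 0.17 and Efcab8 at 0.21. Lca5l was at 131 and 132 FPKM in pachytene cells and at 2.24 and 2.25 FPKM at day 3, the same course as Hspa2 at a lower level. The 8 conditions form 4 pairs that share a table and its normalization.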

How the data were processed

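Expression was measured by RNA sequencing of Trizol-extracted RNA. Libraries came from a TruSeq RNA kit, and no strand-keeping step is named, per the labels' protocols. The tools were Bowtie 0.12.7, TopHat 1.3.0, Cuffdiff and Cufflinks 1.1.0, which the submitters' processing notes list without roles. The sources used here name no genome build. Per the file headers, the authors deposited FPKM for each of 2 conditions per table, a test statistic (a score), a p-value and a q-value. These were copied and not recomputed. Depth is unknown, since no counts were used.

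Log2 differences were computed from FPKM with a pseudocount of 0.1, with Python 3.11.15, pandas 2.3.3 and numpy 2.4.6, by code tested on simulated data. The implied error is the size of the log2 ratio divided by the size of the authors' test statistic, and 95% intervals follow from it. All genes marked as tested entered the background shares, with no filter on low values. Groups do not overlap where every spermatocyte level lies above, or below, every testis level. Shares above and below, and chaperone lists, are described by counts and medians, with no test of samples.

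The 10 genes, the lists and the tests were chosen with earlier results of these data known. Named genes of other lists are up to 3 called genes farthest from 0 in a table and up to 2 with the highest FPKM, of which some are named; the genes most like Hspa1b and Hspa2 needed at least 5 FPKM in a condition and no predicted or clone name. Marker genes and the targeted gene are checks. Hspa14 has several IDs and was given no value. Adgre1 and Emr1, among the macrophage markers, name the same gene and were counted once. The 2 small RNA libraries were not analysed here. Alternatives were other pseudocounts, a filter at 1 FPKM, centring, other thresholds, scaling between tables and leaving out the table labelled L/Z.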

Additional observations from a re-analysis of the deposited data

How the results depend on the processing

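With pseudocounts of 1 and 0.01 FPKM, a filter at 1 FPKM and centring on the median of genes tested, all 160 recomputed differences of the 10 genes moved by less than their implied error, and no called difference changed sign. The filter removed none of the 10 genes, so its values equal the main ones and add no check. At a 1.5-fold threshold, 1 of the 10 genes passed at day 3 (0 at 2-fold) and 2 in the table labelled L/Z (1 at 2-fold). At a q-value of at most 0.01, 1 gene was called at day 3 in place of 2, and 0 in pachytene cells in place of 3; at an unadjusted p-value of at most 0.05, 5 genes were called at day 3, 3 in pre-meiotic testis (1 by q-value), 4 in the table labelled L/Z (2 by q-value) and 5 in pachytene cells. Under 75th percentile and median ratio scaling the same 5 genes lay above the testes, and 2 genes, Hspa8 and Hspb1, lay below in place of 3. Without the table labelled L/Z, an alternative chosen after seeing the data, 5 genes lay above and 5 below, with Hspa1a and Hspa1b added below. No paired analysis was possible because each condition is 1 library and the result comes from no test of replicates, and no replicate could be left out for the same reason. Depth is unknown, so low levels such as Hspb1 in spermatocytes are limited by their implied errors.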

Other observations

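Other chaperones outside the 10 genes also differed between testes and spermatocytes; those named here were chosen after their values were seen. The mitochondrial chaperonin Hspd1 was at 147 and 154 FPKM at day 3, 139 and 124 FPKM in pre-meiotic testis, 6.42 and 5.85 FPKM in the table labelled L/Z, and 6.42 and 8.48 FPKM in pachytene cells. Its co-chaperonin Hspe1 was at 106 and 144 FPKM at day 3 and at 4.36 and 3.33 FPKM in pachytene cells. Clgn, a calnexin-like ER chaperone of male germ cells, was at 1.58 and 0.946 FPKM at day 3 and at 519 and 554 FPKM in pachytene cells, and Cct6b, a testis form of a chaperonin subunit, was at 0.210 and 0.291 FPKM and at 215 and 251 FPKM. None of these genes was called between conditions in any table.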
